A study of Bos taurus with 2 samples.

Results

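The genes described are secreted signals between cells: the cytokines IL6, LIF and CSF1, the chemokines CXCL8, CCL2 and CXCL12, and the vascular growth factor VEGFA. They were chosen by name from a list of 8 signals, and 7 of the 8 were found among the 21867 genes of the deposited feature list. The gene IL11 was not found there under its name and was not analysed here. The cells were satellite cells, the resident progenitors of muscle fibres, from the longissimus muscle of 1 Holstein bull calf aged 2 weeks. They had been released with pronase, enriched by centrifugation and grown in serum-containing growth medium for 1 week, with no treatment and no second condition. Both libraries, called replicates 1 and 2, were made from the same cultured cells, so replicates differ in how the RNA was made into a library and sequenced, while variation between animals or cultures was not measured. The clusters compared are the 15 groups of cells that the authors deposited.

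Cytokines and chemokines are small secreted proteins that bind receptors on nearby cells. IL6 and LIF act through receptor complexes that share the subunit IL6ST (gp130) and activate the transcription factor STAT3. In injured muscle, chemokines such as CCL2 and CXCL8 attract white blood cells, CXCL12 guides cells that carry CXCR4, CSF1 sustains macrophages, and VEGFA stimulates the growth of vessels. Fibro-adipogenic progenitors, the PDGFRA-positive connective tissue cells of muscle, are a known source of such signals.

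Each captured RNA molecule was counted once by its unique molecular identifier (UMI), and levels are given as UMIs of the gene per 10000 UMIs of a cluster within a library. The 9939 cells of replicate 1 held 145631299 UMIs and the 9157 cells of replicate 2 held 137818568, with medians of 14626 and 15206 UMIs per cell. The clusters differed in depth, from a median of 647 UMIs per cell in cluster 15 to 23011 in cluster 9. Clusters 7, 13 and 14 were shallow too, with medians of 1389, 1631 and 2513.5. In cluster 7, ribosomal protein genes took 9.10% of the UMIs, against 22.5% to 31.0% in the other 14 clusters. The libraries shared 27 barcodes.

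The cell labels were checked against marker genes. Clusters 1, 2, 3, 4, 5, 8 and 12, annotated as myogenic, had MYF5 levels from 0.574 in cluster 12 to 1.57 in cluster 8, whereas cluster 9 had 0.131. MYOD1, DES and MYOG, which mark commitment and differentiation, varied among the myogenic clusters, and the MYOG level of 0.265 in cluster 9 was above those of clusters 4, 5 and 8, between 0.108 and 0.135. PAX7, a marker of satellite cells, had 176 UMIs in all cells. Cluster 9 had the highest levels of the fibro-adipogenic markers PDGFRA (1.58) and PPARG (0.288), and cluster 7 had a PDGFRA level of 1.52. Cluster 7 also had the myogenic genes MYF5 (0.728), MYOD1 (2.42), MYOG (1.74) and DES (5.44) at levels within the range of the myogenic clusters. The pericyte and smooth muscle list had a summed level of 12 in cluster 7, the highest, 7.34 in cluster 9 and 4.15 in cluster 10, the lowest, and ACTA2 made up most of it. Within it CSPG4 was at 2.31 in cluster 7 and 0.865 in cluster 9 against 0.0382 to 0.216 in the myogenic clusters. NOTCH3 was at 1.68 in cluster 7 and 0.214 in cluster 9. In cluster 9, ACTA2 (6.25), MCAM (0.00114), MYH11 (0.00379) and ABCC9 (0.00114) were within the range of the myogenic clusters. The part of these genes in the results was not tested. The matrix genes DCN and LUM of the fibro-adipogenic list, unlike PDGFRA and PPARG, were not highest in cluster 9. The summed level of the fibro-adipogenic list was highest in cluster 8, at 21.0, against 14.2 in cluster 9. White blood cell markers were near 0, with 1136 UMIs for 9 of the 10 genes listed, a summed level between 0 and 0.208, 1 UMI of PTPRC and 0 of CD79A. Of these, CD14 (0.0136) and CSF1R (0.00341) were highest in cluster 9, and the others with UMIs in clusters 3, 5 or 7. The endothelial markers had 956 UMIs and a summed level between 0 and 0.224, highest in cluster 12, where CLDN5 made up 0.220. PECAM1 (0.0121), EMCN (0.00531) and CDH5 (0.00227) were highest in cluster 9, and VWF, KDR and TEK in clusters 7 or 14.

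The 7 genes differed in how they were spread over the clusters. Cluster 9 held 5.66% of the cells and 9.31% of all UMIs. Of the CCL2 UMIs, 87.2% lay in cluster 9 (12796 of 14679, 95% exact binomial interval 86.6% to 87.7%). This share was 79.05% for CXCL8 (83 of 105, 70.0% to 86.4%), 77.6% for CXCL12 (2550 of 3285, 76.2% to 79.04%) and 73.7% for IL6 (410 of 556, 69.9% to 77.4%). VEGFA was less concentrated, with 31.2% of its 6058 UMIs in cluster 9. CSF1 was found throughout, with 13.3% of its 106024 UMIs in cluster 9 and at least 1 UMI in 83.4% of all cells. LIF was barely detected, with 19 UMIs in 19 cells, of which 1 lay in cluster 9. These intervals cover counting error only.

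**Figure D1:**
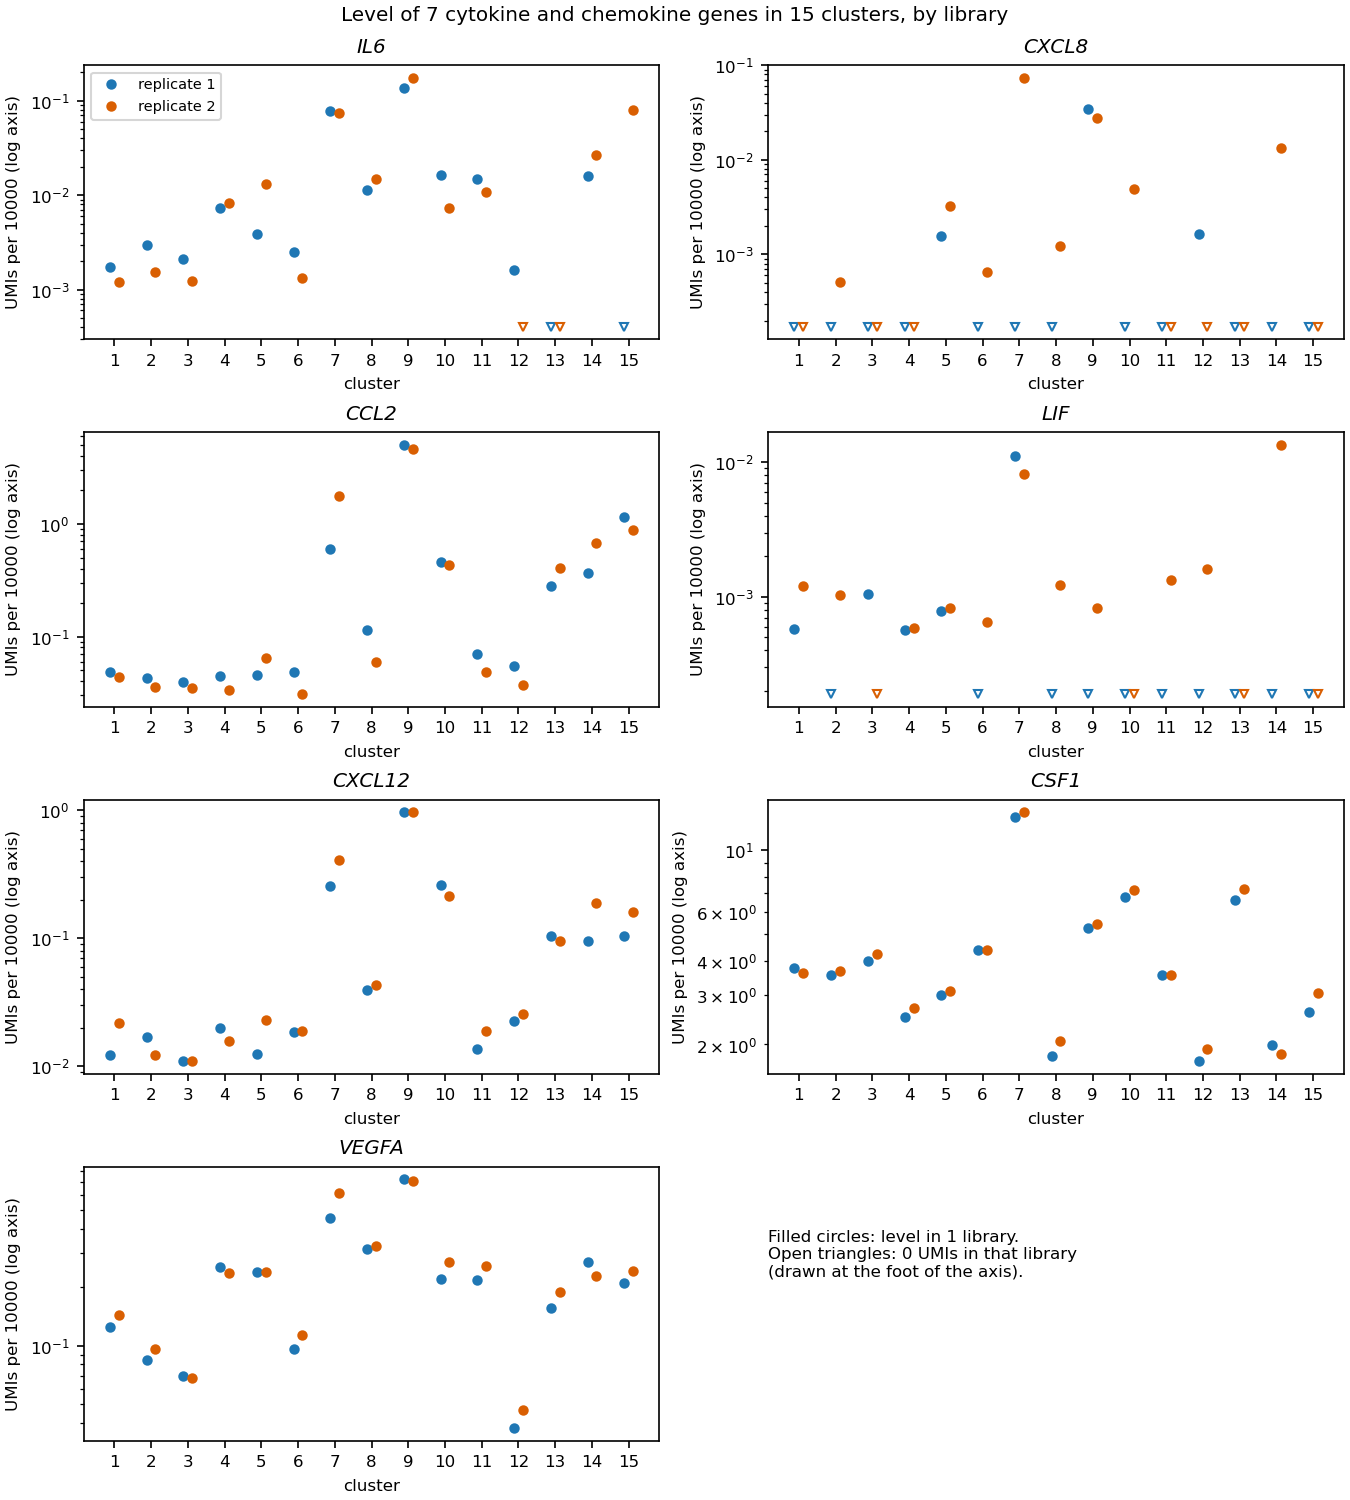
Level of each of the 7 genes (UMIs per 10000, log axis) in the 15 clusters, with 1 circle per library and open triangles for libraries without a UMI. CCL2, CXCL12, IL6 and VEGFA were highest in cluster 9, and CSF1 was highest in cluster 7, where replicate 1 had a level of 13.1 and replicate 2 a level of 13.7.

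CCL2, which recruits monocytes, had a level of 5.03 in replicate 1 and 4.64 in replicate 2 in cluster 9. The next clusters were cluster 7, with 0.602 and 1.78, and cluster 15, with 1.15 and 0.887. The libraries of clusters 7 and 15 overlapped, and the cluster 15 value rested on 22 UMIs. Clusters 14, 10 and 13 followed with mean levels of 0.517 ± 0.216, 0.442 ± 0.0202 and 0.341 ± 0.0876 (SD, n = 2 libraries). In the 9 remaining clusters the mean level ran from 0.0372 to 0.0866. Of the 14 pairs of neighbours in this order, 10 had overlapping libraries.

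CXCL12, the ligand of CXCR4 and ACKR3, had levels of 0.971 and 0.962 in cluster 9, and every other cluster had at most 0.410 in either library. That value belonged to replicate 2 of cluster 7, whose replicate 1 had 0.257. Cluster 10 had 0.262 and 0.215, so clusters 7 and 10 overlapped. The lowest CXCL12 level was in cluster 3, with 0.0111 and 0.0110. Here 7 of the 14 neighbouring pairs overlapped.

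IL6, which signals through IL6R and IL6ST, had levels of 0.138 and 0.176 in cluster 9 from 196 and 214 UMIs. In cluster 7 the levels were 0.0781 and 0.0738 from 7 and 9 UMIs, and the 2 clusters did not overlap. Outside clusters 7, 9, 14 and 15 no library had more than 0.0162, and cluster 15 had 1 UMI. Clusters 1, 2, 3, 6 and 12 had 9 or fewer IL6 UMIs each, and cluster 13 had 0, which allows a level of up to 0.0302 at 3 counts. Of 14 neighbouring pairs, 11 overlapped.

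CXCL8, a chemokine that attracts neutrophils, had levels of 0.0345 and 0.0279 in cluster 9 from 49 and 34 UMIs. Cluster 7 had 9 UMIs, all in replicate 2, and the libraries of clusters 7 and 9 overlapped. Outside both clusters 13 UMIs remained, 6 of them in cluster 5. LIF had 3 UMIs at most in any cluster, and none of its 14 neighbouring pairs was apart.

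CSF1, the growth factor of macrophages, had levels of 13.1 and 13.7 in cluster 7. Clusters 10 and 13 overlapped each other, with 6.79 and 7.17 in cluster 10 and 6.61 and 7.21 in cluster 13. Cluster 9 followed with 5.24 and 5.43. The lowest levels were those of cluster 12, with 1.74 and 1.92, cluster 14, with 2.00 and 1.85, and cluster 8, with 1.81 and 2.07. These 3 clusters overlapped one another, and 7 of the 14 neighbouring pairs overlapped.

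VEGFA, the main vascular endothelial growth factor, had levels of 0.725 and 0.706 in cluster 9. Cluster 7 had 0.457 and 0.615, and cluster 8 had 0.316 and 0.329. Clusters 4, 5, 10, 11, 14 and 15 lay between 0.210 and 0.269. The lowest levels were 0.0697 and 0.0682 in cluster 3 and 0.0374 and 0.0463 in cluster 12, the clusters in which the muscle regulator MYOG was highest, at 6.68 and 18.6. Of 14 neighbouring pairs, 6 overlapped.

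To compare shares of cells at equal depth, each cell was thinned at random to 2000 UMIs, and shallower cells were left out. After thinning, CCL2 was found in 43.8% of the 1080 cells of cluster 9 (95% exact binomial interval 40.8% to 46.8%), against 83.0% without thinning. In the 7 myogenic clusters the thinned share ran from 0.613% to 1.28%, and without thinning from 5.25% to 8.13%, at median depths of 12929 to 19113 UMIs. Cluster 10 had 5.35% (4.04% to 6.92%) and cluster 7 had 12% (8.60% to 16.2%), the latter from the 308 of its 1298 cells that were deep enough. No cluster is known to lack CCL2, so no reference share without expression can be given. Whether the CCL2 UMIs of the myogenic clusters came from those cells or from free RNA was not tested.

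Thinned CXCL12 was found in 16.6% of the cells of cluster 9 (14.4% to 18.9%), in 6.82% of those of cluster 7 and in 0.159% to 0.645% of those of the myogenic clusters. Thinned VEGFA was found in 13.1% of the cells of cluster 9 and 12% of those of cluster 7, and these intervals overlapped. Among the myogenic clusters its share ran from 0.797% in cluster 12 to 6.04% in cluster 8. Thinned CSF1 was found in 75.6% of the cells of cluster 7, 66.0% of cluster 10, 57.5% of cluster 9 and 27.8% of cluster 12. IL6 was found in 3.06% of the thinned cells of cluster 9 (2.11% to 4.26%), and its interval in cluster 7, 0.355% to 3.29%, overlapped.

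**Figure D2:**
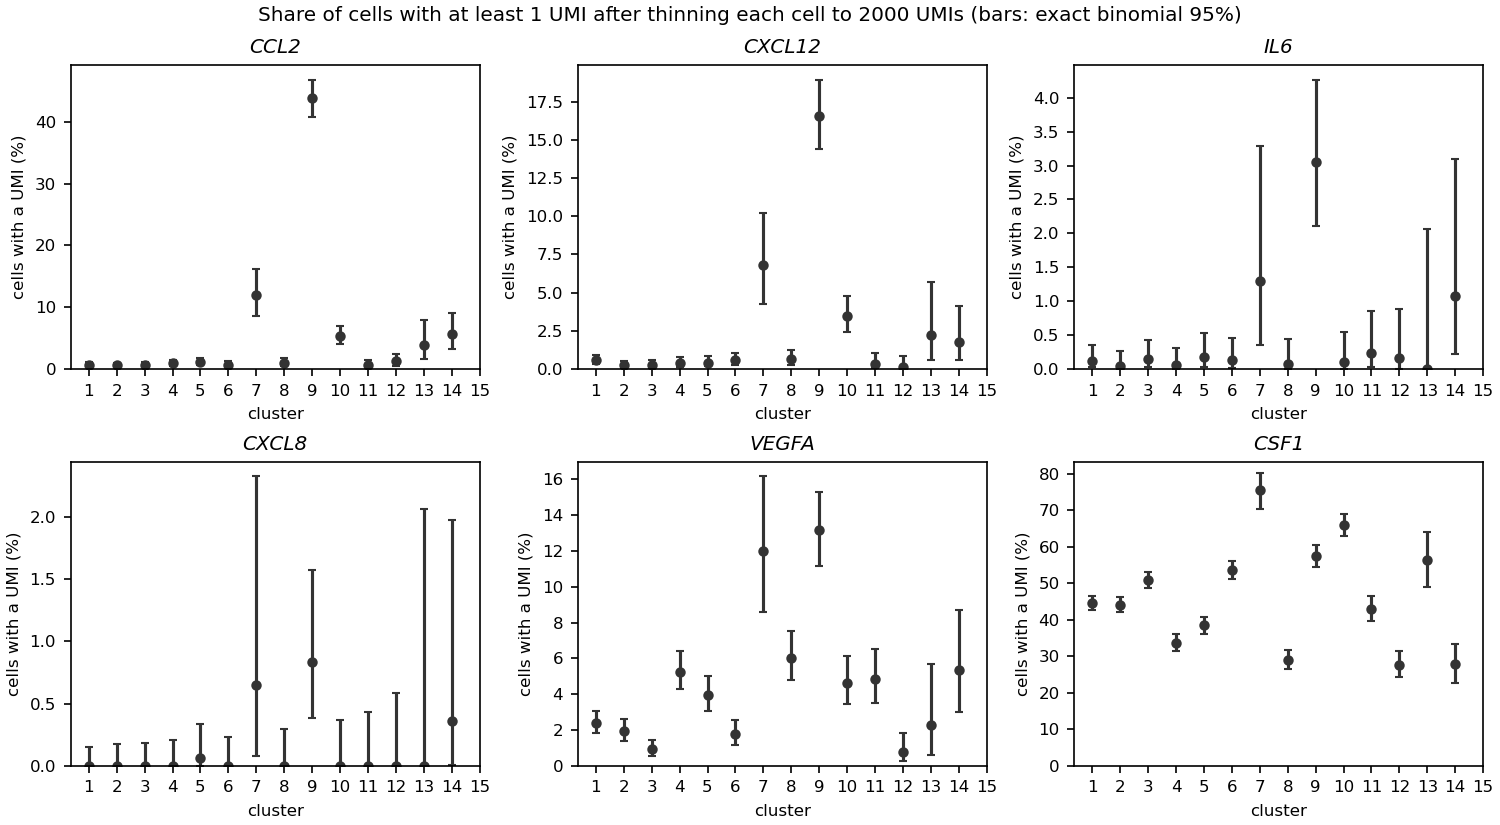
Share of cells with at least 1 UMI in each cluster after every cell was thinned to 2000 UMIs, with exact binomial 95% intervals that cover counting error only. Cluster 15 has no point because none of its cells reached that depth. CCL2 stood at 43.8% in cluster 9 and at 0.613% to 1.28% in the 7 myogenic clusters, whereas CSF1 ran from 27.8% in cluster 12 to 75.6% in cluster 7.

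Within cluster 9, CCL2 varied widely from cell to cell. The median was 6 UMIs, the highest cell had 140, and 184 of the 1080 cells had none. The 108 cells with the most CCL2 held 40.8% of its UMIs. Of all 447 cells with at least 10 CCL2 UMIs, 426 lay in cluster 9 and 21 elsewhere. A high doublet score was found in 54 of the 426 and in 6 of the 21. These 6 were all of the 21 that lay in clusters 1, 2, 4, 5 and 11, and those in clusters 7, 8, 10 and 14 had no high score. IL6 was more uneven, with 865 of the 1080 cells at 0, 73.9% of its UMIs in the 108 highest cells and 47 in a single cell. CXCL8 was found in 44 cells of cluster 9.

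**Figure D3:**
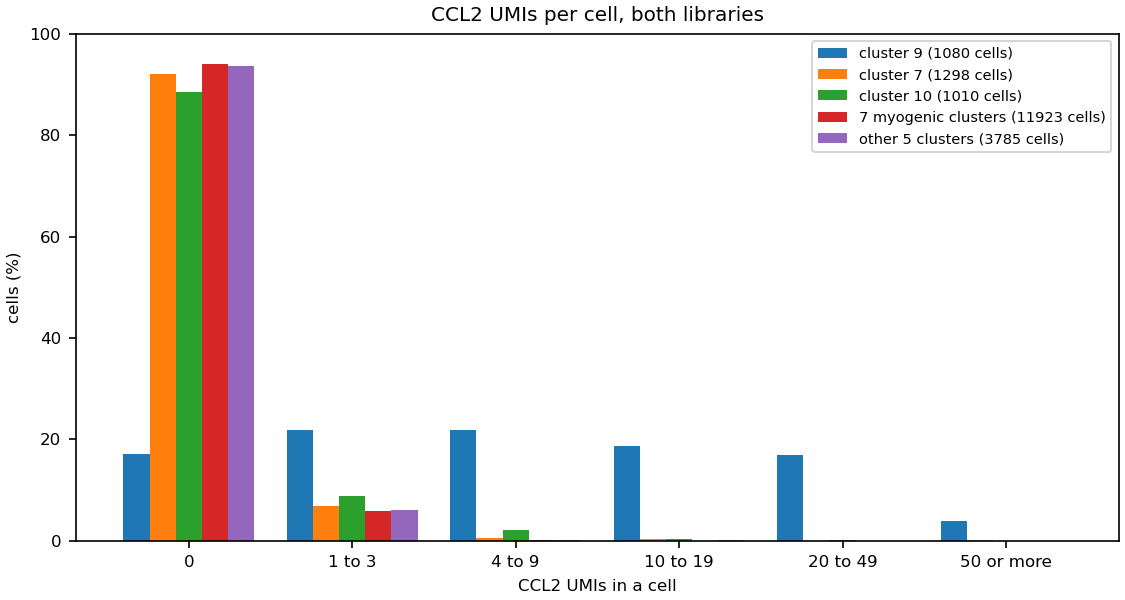
Percent of cells by their number of CCL2 UMIs in cluster 9, in clusters 7 and 10, in the 7 myogenic clusters together and in the other 5 clusters. In cluster 9, 17.0% of the cells had no CCL2 UMI, against 94.0% of the myogenic cells, and 3.98% had 50 or more.

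The cells of cluster 9 were also divided at the median of their CCL2 share into 540 cells above and 540 at or below it, with nearly equal median depths of 23011 and 23019.5 UMIs. In the cells above, IL6 levels were 0.172 and 0.200, against 0.102 and 0.154 below, and CXCL12 levels were 1.08 and 1.11 against 0.852 and 0.835. VEGFA levels were 0.846 and 0.828 against 0.593 and 0.601, and CSF1 levels were 5.97 and 6.11 against 4.45 and 4.85. These 4 genes were therefore higher in both libraries where CCL2 was higher, IL6 from 240 and 170 UMIs. The difference was not particular to them. CXCL5 had 9.11 and 9.59 above against 8.04 and 8.33 below, and the marker PDGFRA had 1.72 and 1.68 against 1.54 and 1.39. CXCL8 went the other way, with 0.0270 and 0.0159 above and 0.0427 and 0.0382 below, from 29 and 54 UMIs. These values are a description, and no test was made. Of the 44 cells of cluster 9 with CXCL8, 9 had IL6, which was found in 19.9% of all its cells. Of its 215 cells with IL6, 187 had CCL2, which was found in 83.0% of all its cells.

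For tests, the UMIs of all cells on a side were added up within each library, and edgeR compared the 2 sums of one side with the 2 sums of the other. Its p-values describe differences beyond the spread between library preparations of the same cells. The clusters were made from these same counts, so the p-values are not independent evidence that the clusters differ. A difference is called higher or lower here where the Benjamini-Hochberg adjusted p was under 0.05.

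In cluster 9 against the 7 myogenic clusters together, 5 of the 7 genes, CCL2, CXCL12, IL6, VEGFA and CSF1, were high enough to be tested on either side and all 5 were higher, where 28.9% of all 12941 genes tested were called higher. The median log2 fold change of the 5 was 5.06, against -0.01 over all genes. CCL2 had levels of 0.0509 and 0.0422 in the myogenic clusters against 5.03 and 4.64 in cluster 9, a log2 fold change of 6.68 ± 0.11 (SE, edgeR, adjusted p = 4.33e-06). CXCL12 rose from 0.0174 and 0.0191 to 0.971 and 0.962, by 5.70 ± 0.07 on the log2 scale (edgeR, adjusted p = 3.26e-06). The groups were far apart for both chemokines in either library. IL6 had 0.00414 and 0.00509 in the myogenic clusters and a log2 fold change of 5.06 ± 0.19 (edgeR, adjusted p = 2.56e-05). CXCL8 had 3 and 6 UMIs in the myogenic clusters against 49 and 34 in cluster 9. It passed the filter on low counts only through cluster 9, so its fitted log2 fold change of 6.01 is a description and is not counted among these genes. VEGFA and CSF1 changed less, although both were called. VEGFA had 0.155 and 0.16 in the myogenic clusters, a log2 fold change of 2.16 ± 0.05 (edgeR, adjusted p = 7.56e-06), and CSF1 had 3.16 and 3.26, a log2 fold change of 0.71 ± 0.04 (edgeR, adjusted p = 7.11e-05).

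Against all other cells, the same 5 genes were higher in cluster 9, where 25.3% of 13205 genes were called higher. CXCL8 again passed the filter only through cluster 9, with 22 UMIs in all other cells. The log2 fold changes were 6.01 for CCL2, 5.04 for CXCL12, 4.75 for IL6, 2.11 for VEGFA and 0.54 for CSF1. When the cells were clustered again without the cytokine, receptor and pathway genes, all 5 stayed called, with CCL2 at 5.31 and CSF1 at 0.55. High doublet scores were found in 14.4% of the cells of cluster 9, and all 5 genes stayed called without these cells. Over all 15 clusters against all other cells, 18 differences of the 7 genes were called higher, CXCL8 in cluster 9 among them, and 41 lower, where 14.9% of all tests were called higher and 17.1% lower. Cluster 9 held most of the CCL2, CXCL12, IL6 and CXCL8 UMIs of the other cells in the comparisons of the other clusters, so those are given with cluster 9 left out of the other cells. There 23 of the 71 differences tested were higher and 24 lower, where 14.3% and 16.5% of all tests were, and CXCL8 was not tested.

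**Figure D4:**
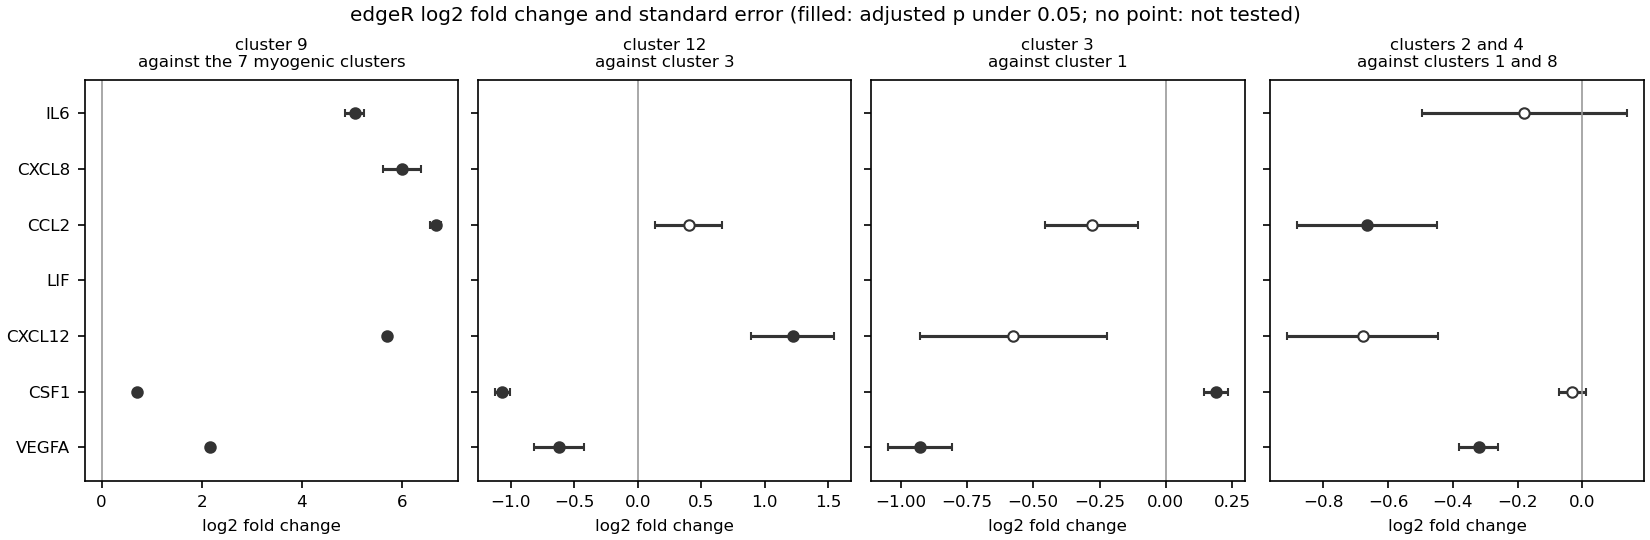
log2 fold change with its standard error (edgeR) of the genes tested in 4 comparisons of clusters, each with its own horizontal axis. In cluster 9 against the myogenic clusters the points lie above 0, from 0.71 for CSF1 to 6.68 for CCL2, with CXCL8 drawn although it passed the filter only through cluster 9, whereas VEGFA lies below 0 in the other 3 comparisons.

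Cluster 7, without cluster 9 among the other cells, was higher for 5 of 6 genes tested, where 19% of 12930 genes were called higher. The log2 fold changes were 3.65 for CCL2, 3.24 for IL6, 3.06 for CXCL12, 1.28 for CSF1 and 1.13 for VEGFA. LIF had 3.22 from 2 UMIs in cluster 7 and was not called (edgeR, Benjamini-Hochberg adjusted p = 0.119). It passed the filter on low counts only through cluster 7, also with cluster 9 kept, so a call of LIF could only be higher. With cluster 9 kept among the other cells, 4 of 7 were higher, where 18.3% were called higher, and CCL2 was not called at 0.64 ± 0.39 (edgeR, Benjamini-Hochberg adjusted p = 0.233). With the library number as a replicate block, it was called at 0.54 (edgeR, Benjamini-Hochberg adjusted p = 0.00127), as was CXCL8 at 2.98 (edgeR, Benjamini-Hochberg adjusted p = 0.00199), although all 9 CXCL8 UMIs lay in replicate 2 and its direction turned without that library. In that comparison 40.9% of the calls were higher, and with library totals in place of the trimmed-mean scaling (TMM) 74.6% were, with a median log2 fold change over all genes of 0.52 against -0.12.

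The CCL2 value of cluster 7 differed between the libraries. With cluster 9 kept, its log2 fold change was -0.57 in replicate 1 and 1.32 in replicate 2. Of the 1298 cells, 6 had at least 10 CCL2 UMIs, and 1 of these had 50 or more. When the cells were clustered without the cytokine, receptor and pathway genes, the cluster that matched cluster 7 had CCL2 at -1.87, CXCL12 at -1.79, IL6 at -0.81 and VEGFA at -0.14 against all other cells, whereas CSF1 stayed higher at 1.15. CXCL12 was thus called lower there, where 3152 of 12982 genes were, although the fit on the deposited clusters called it higher at 0.94. Of these 5 genes, CSF1 alone kept its direction in cluster 7 under both groupings of cells. Its level of 13.4 ± 0.429 (SD, n = 2 libraries) moved together with the low ribosomal share and low depth of the cluster, and their part in it was not tested.

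Cluster 10 was higher for 4 of 5 genes tested without cluster 9, where 17.6% of 13028 genes were called higher. CXCL12 had a log2 fold change of 3.31, CCL2 of 2.72, CSF1 of 0.89 and VEGFA of 0.51, all called by edgeR. With cluster 9 kept, CCL2 was called lower at -0.35, where 21.9% of genes were called lower, so its direction depends on that cluster. PDGFRA (0.501) and PPARG (0.0719) in cluster 10 were between cluster 9 and the myogenic clusters. DCN (5.10), LUM (2.48), ZNF423 (0.0796), MYOD1 (5.59) and DES (4.85) were within the range of the myogenic clusters.

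Cluster 8, without cluster 9, was higher for 3 of 5 genes tested, where 21.3% were called higher, and lower for 1, where 25% were called lower. IL6 had a log2 fold change of 1.34, VEGFA of 1.11 and CXCL12 of 0.58, and CSF1 had -0.92. The IL6 value rested on 22 UMIs. In the fit that kept cluster 9, CXCL12 was called lower at -1.50 (edgeR, adjusted p = 0.000247), where 3085 of 13119 genes were called lower. IL6 was at -0.58 there and was not called, so the directions of both genes depend on cluster 9. In cluster 12, without cluster 9, 3 of 5 genes were lower, where 28.7% were called lower. VEGFA had -1.83, CSF1 had -0.83 and IL6 had -2.68, the last from 1 UMI. IL6 passed the filter on low counts there only through the other cells, so a call of it could only be lower. The CXCL12 difference there was -0.08 and was not called.

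Clusters 13 and 14 were shallow, with 602 and 446 cells. In cluster 13, 3 of 5 genes tested were higher without cluster 9, where 6.11% of genes were called higher, with log2 fold changes of 2.08 for CCL2, 1.70 for CXCL12 and 0.83 for CSF1. In cluster 14, 2 of 5 were higher, where 4.12% were called higher, with 2.97 for CCL2 and 2.44 for CXCL12, and 1 was lower, where 5.01% were called lower, with -0.83 for CSF1. These values rested on 33 and 73 CCL2 UMIs and on 10 and 20 CXCL12 UMIs. With cluster 9 kept, CCL2 in cluster 13 was at -0.75 and CXCL12 at -0.31, and neither was called. Over the settings tried, CCL2 in cluster 13 ran from -3.21 to 2.08 and CXCL12 from -1.96 to 1.70. With cluster 9 kept, CCL2 in cluster 14 was at 0.13 and was not called (edgeR, Benjamini-Hochberg adjusted p = 0.815), and it was at -0.52 in replicate 1 and 0.59 in replicate 2. In cluster 11, 2 of 5 were higher, where 14.9% were called higher, with 1.23 for IL6 and 0.52 for VEGFA, and 1 was lower, where 15.8% were called lower, with -0.93 for CXCL12. The IL6 value there rested on 20 UMIs. In the fit that kept cluster 9, IL6 was at -0.69 and VEGFA at 0.11 in cluster 11, and neither was called.

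In the remaining clusters most of the genes called were lower, with cluster 9 left out. In cluster 1, 2 of 5 genes tested were lower, where 15.5% of genes were called lower, and in cluster 2, 4 of 5 were lower, where 15.7% were. In cluster 3, 4 of 5 were lower and 1 higher, where 26% were called lower and 22.4% higher, and in cluster 6, 4 of 5 were lower and 1 higher, where 8.88% were called lower and 11.9% higher. The higher gene was CSF1 in both, at 0.33 and 0.37. IL6 is among the genes counted as lower in clusters 1, 2, 3 and 6, where it had 9 or fewer UMIs. It passed the filter on low counts there only through the other cells, so a call of it could only be lower. In cluster 4, 3 of 5 were lower and 1 higher, where 15.7% were called lower and 16.9% higher, and in cluster 5, 1 of 5 was lower and 1 higher, where 12.9% were called lower and 13.2% higher. The higher gene was VEGFA in both, at 0.71 and 0.67. CXCL12 was lower in clusters 2, 3, 4 and 6, from -1.41 in cluster 3 to -0.63 in cluster 6. In cluster 15 CCL2 was at 3.55 from 22 UMIs and was not called (edgeR, Benjamini-Hochberg adjusted p = 0.0655).

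Cluster 12 was compared with cluster 3 because both express muscle differentiation genes and cluster 12 expresses more of them. CSF1 had levels of 1.74 and 1.92 in cluster 12 and 4.0 and 4.22 in cluster 3, a log2 fold change of -1.07 ± 0.06 (edgeR, adjusted p = 8.44e-06). VEGFA had 0.0374 and 0.0463 against 0.0697 and 0.0682, a log2 fold change of -0.62 ± 0.20 (edgeR, adjusted p = 0.0452). CXCL12 had 0.0228 and 0.0256 against 0.0111 and 0.0110, a log2 fold change of 1.22 ± 0.33 (edgeR, adjusted p = 0.0231). Thus 1 of 4 genes tested was higher, where 18.2% of 10811 genes were called higher, and 2 were lower, where 15.6% were called lower. The CSF1 difference held in all 7 settings tried, and those of VEGFA and CXCL12 in 4 of 7. Among the 7, leaving out cells under 2000 UMIs removed no cell here and so repeated the main fit. Without the cells with high doublet scores CXCL12 fell to 0.48 (edgeR, adjusted p = 0.489), and its lowest log2 fold change over the 7 settings was 0.11. The CXCL12 levels of clusters 12 and 3 rested on 30 and 39 UMIs. Over all genes 53.8% of the calls in this comparison were higher, and 38.0% were with library totals in place of TMM.

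Cluster 3 was compared with cluster 1, which the study proposes as an earlier stage from its trajectory inference. VEGFA fell from 0.125 and 0.144 in cluster 1 to 0.0697 and 0.0682 in cluster 3, a log2 fold change of -0.93 ± 0.12 (edgeR, adjusted p = 0.00101). CSF1 rose from 3.77 and 3.62 to 4.0 and 4.22, by 0.19 ± 0.04 on the log2 scale (edgeR, adjusted p = 0.0131), a small difference that was lost at 0.12 when each cell was assigned to its best profile without the cytokine lists. Of 4 genes tested, 1 was higher and 1 lower, where 21.1% of 11362 genes were called higher and 19.1% lower. CCL2 had -0.28 ± 0.18 and CXCL12 -0.58 ± 0.35, and neither was called.

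Clusters 2 and 4, whose raised genes the study ties to DNA synthesis and cell division, were compared with clusters 1 and 8, for which it reports no such tie. VEGFA had levels of 0.164 and 0.163 against 0.190 and 0.205, a log2 fold change of -0.32 ± 0.06 (edgeR, adjusted p = 0.00690). CCL2 had 0.0436 and 0.0346 against 0.0711 and 0.0489, a log2 fold change of -0.66 ± 0.22 (edgeR, adjusted p = 0.0490). This call was kept in 3 of 7 settings, 1 of which, without cells under 2000 UMIs, repeated the main fit. It lies among the low CCL2 levels in which the part of free RNA was not tested. Thus 2 of 5 genes tested were lower, where 20.8% of 12222 genes were called lower, and the fitted log2 fold changes of all 5 were below 0. CXCL12 at -0.68 ± 0.23 was called only with the library as a block (edgeR, adjusted p = 0.00140) or without high doublet scores (edgeR, adjusted p = 0.0368). CSF1 had 3.06 and 3.23 against 3.10 and 3.11 and was not called, at -0.03 ± 0.04. The pooled VEGFA value covered unlike clusters, since cluster 4 had 0.255 and 0.238 and cluster 2 had 0.0844 and 0.0963. The pooled CCL2 value did so too, since cluster 8 had 0.114 and 0.0589, from 101 and 48 UMIs, and cluster 1 had 0.0489 and 0.0439.

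The receptors of these signals were sparse for the chemokines that attract white blood cells. CCR2, the receptor of CCL2, and CXCR2, a receptor of CXCL8, had 0 UMIs in all cells, and CXCR1 had 1. CSF1R, the receptor of CSF1, had 14 UMIs, and the VEGFA receptor KDR had 25. CXCR4, the receptor of CXCL12, had 811 UMIs and a lower level in cluster 9 than in the myogenic clusters, with a log2 fold change of -1.80 ± 0.20. Receptors of the gp130 family were present, with 5071 UMIs of IL6ST, 1953 of IL11RA, 540 of IL6R and 497 of LIFR.

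Of 18 receptor genes named, 12 were tested in cluster 9 against the myogenic clusters, and 6 were higher and 2 lower, with a median log2 fold change of 0.64. Of the 12 tested, KDR passed the filter on low counts only through cluster 9, so a call of it could only be higher. Over all genes, 28.9% were called higher and 27.6% lower in this comparison. IL11RA, the receptor subunit specific for IL11, had a level of 0.367 ± 0.0139 in cluster 9 and 0.0335 ± 0.00309 in the myogenic clusters (SD, n = 2 libraries), a log2 fold change of 3.43 ± 0.08. FLT1, a high-affinity VEGFA receptor, had 0.0629 ± 0.00733 against 0.00844 ± 0.00217, a log2 fold change of 2.87 ± 0.24. NRP1, a VEGFA co-receptor, had 0.648 ± 0.0179 against 0.205 ± 0.00218, a log2 fold change of 1.64 ± 0.05. These 3 were called by edgeR and in all 7 alternative settings, 1 of which, without cells under 2000 UMIs, repeated the main fit. In cluster 12 against cluster 3, IL6ST at -0.77 ± 0.13 and NRP1 at -0.73 ± 0.17 were lower, of 5 tested, where 15.6% of all genes were lower.

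**Figure D5:**
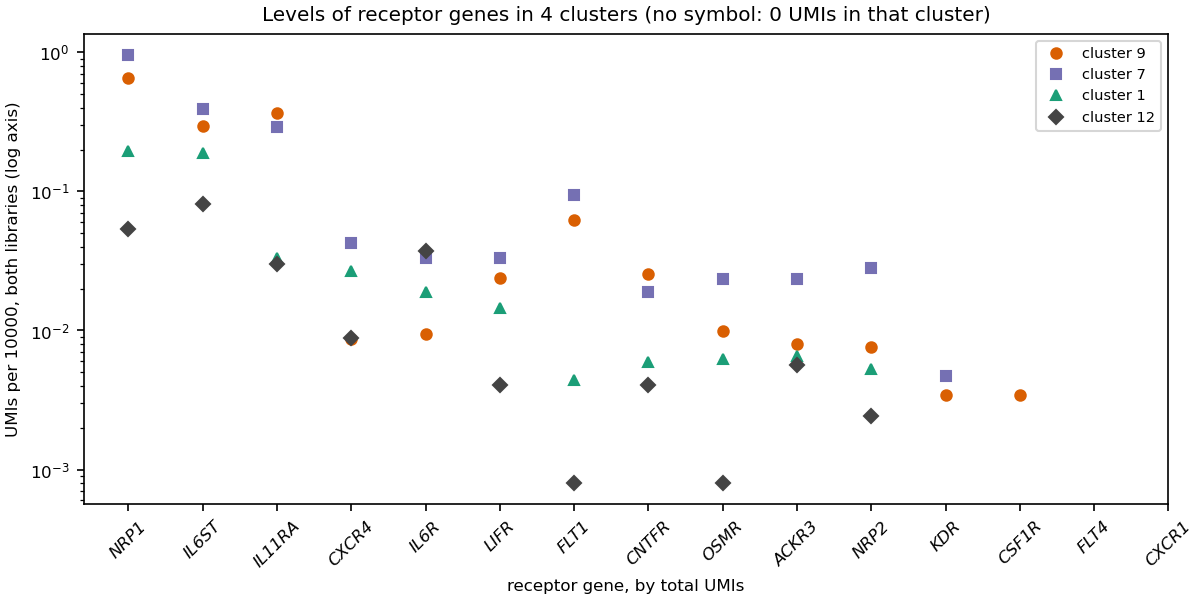
Level of 15 receptor genes (UMIs per 10000 over both libraries, log axis) in clusters 9, 7, 1 and 12, ordered by their UMIs in all cells. IL11RA stood at 0.366 in cluster 9 against 0.0331 in cluster 1, whereas CXCR4 was lower in cluster 9 (0.00872) than in cluster 1 (0.0269).

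Other secreted signals moved in both directions. Of 54 named, 49 were in the feature list, 8 of these had no UMI, and 30 were tested in cluster 9 against the myogenic clusters, with 13 higher and 11 lower, where 28.9% and 27.6% of all genes were, and a median log2 fold change of 0.21. CXCL5, a neutrophil chemokine, had 8.76 ± 0.224 in cluster 9 against 0.124 ± 0.00142 (SD, n = 2 libraries), a log2 fold change of 6.12 ± 0.04. PGF, a VEGF family member that binds FLT1, had 5.91 ± 0.12. CXCL2 had a fitted log2 fold change of 6.05 from 198 UMIs in all, with a level of 0.000854 in the myogenic clusters, and that value is a description. Of the 30 tested, CXCL2, CCL11, TNFSF10 and TNFSF13B passed the filter on low counts only through cluster 9. A call of these genes could only be higher, so the counts of this list are a description. CXCL1, CXCL3 and CXCL6 were not in the feature list under their names. Whether reads counted as CXCL2 came from such relatives was not tested. On a later assembly, ARS-UCD2.0, CXCL8, CXCL5 and CXCL2 lie in the same chemokine gene cluster. In cluster 12 against cluster 3, 2 of 16 tested were higher and 7 lower, where 18.2% and 15.6% of all genes were. IL15 had -2.48 ± 0.40, with 0.0136 ± 0.0124 in cluster 12 against 0.0820 ± 0.00579 in cluster 3 (SD, n = 2 libraries). It passed the filter on low counts only through cluster 3, so a call of it could only be lower, and its value is a description. The interferon-induced chemokine CXCL9 had -0.98 ± 0.08, and CTF1, a gp130 cytokine, had 0.94 ± 0.23.

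Genes of the pathways upstream and downstream of these signals were counted in the same way. Of the NF-kB list, 15 of 19 were tested in cluster 9 against the myogenic clusters, with 8 higher and 5 lower, where 28.9% and 27.6% of all genes were. Of the 15 tested, PTGS2 passed the filter on low counts only through cluster 9, so a call of it could only be higher. TNFAIP3, an inhibitor of NF-kB signalling, had a log2 fold change of 2.59 ± 0.17, and the interferon regulatory factor IRF1 had 1.68 ± 0.11. BCL3, an atypical member of the IkB family of NF-kB regulators, had -1.44 ± 0.16. In cluster 12 against cluster 3, 5 of 11 were higher and 1 lower, where 18.2% and 15.6% of all genes were, led by TRAF1 at 1.86 ± 0.20, RELB at 1.08 ± 0.26 and NFKBIA at 1.00 ± 0.08. Of the 11, TNFAIP3 passed the filter on low counts only through cluster 12, and NFKBIE only through cluster 3. A call of either could go in 1 direction only, so these counts are a description.

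Of the gp130 and STAT3 list, 12 of 13 were tested in cluster 9 against the myogenic clusters, with 4 higher and 2 lower, where 28.9% and 27.6% of all genes were, and a median of -0.02. JUNB had 1.33 ± 0.06, FOS had -2.27 ± 0.07 and PIM1 had -0.70 ± 0.08. SOCS3, a usual target of STAT3, had 43 UMIs in all cells. It passed the filter on low counts only through cluster 9, so a call of it could only be higher. In cluster 12 against cluster 3, 2 of 11 were higher, a share near the 18.2% of all genes, and these were CISH at 1.47 ± 0.28 and TYK2 at 0.56 ± 0.10. Of the hypoxia list, which holds genes that often rise with VEGFA, 19 of 20 were tested in cluster 9 against the myogenic clusters, with 6 higher and 11 lower, where 28.9% and 27.6% of all genes were. ADM had 2.02 ± 0.04, whereas EGLN3 had -2.23 ± 0.17 and VLDLR had -1.55 ± 0.12. In cluster 12 against cluster 3, where VEGFA was lower, 3 of 18 were higher and 5 lower, where 18.2% and 15.6% of all genes were. EGLN3 at 2.51 ± 0.11 and VLDLR at 1.33 ± 0.14 were higher, and ADM at -0.80 ± 0.12 was lower.

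The patterns of the 7 genes over the clusters were compared by the correlation of log2(level + 0.01) over the 15 clusters, which share their libraries and differ in depth. CCL2 and CXCL12 were most alike, at 0.978, and LIF and CSF1 were less like the others, with 0.233 between them, up to 0.650 for LIF and up to 0.547 for CSF1, both with CXCL8. Among 9067 genes, those most like CCL2 were CXCL5 (0.993), the matrix protein gene DPT (0.986) and CXCL12. Those most like CXCL12 were CXCL5 (0.982), INHBA (0.980), which encodes activin A, and CCL2. IL6 was most like LY96 (0.939), F3 (0.936), the tissue factor gene, and TRIM47 (0.923). VEGFA was most like TKT (0.971), an enzyme of the pentose phosphate pathway, RAI14 (0.954) and PCOLCE2 (0.952), and CSF1 was most like GATAD2A (0.967), SCARB1 (0.937) and AHCYL1 (0.934). For CXCL8 (NPTN, DOCK10 and ENSBTAG00000001911) and LIF (CLK4, ENSBTAG00000046775 and SYPL1) the order rested on 105 and 19 UMIs. With rank correlations 7 of these 21 genes were again among the 3 most like, and without the shallow clusters 7, 13, 14 and 15 only 4 were.

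The ratios between the UMIs of CCL2 and the 2 chemokines most like it were also compared over the clusters. There were 5.02 CCL2 UMIs per CXCL12 UMI in cluster 9, 1.86 in cluster 10, 1.90 to 3.38 in the myogenic clusters and 2.12 to 3.72 in clusters 6, 7, 11, 13 and 14. Cluster 15 had 7.33, from 3 CXCL12 UMIs. CXCL5 had 1.80 UMIs per CCL2 UMI in cluster 9, 1.82 in cluster 15, 4.01 in cluster 8 and 2.09 to 2.72 in the other 12 clusters. These ratios are a description, with no test.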

How the data were processed

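Per the labels and the methods of the study, 2 libraries of the same cells were made with the 10x Genomics kit for 3′ ends, version 3. The authors aligned reads to ARS-UCD1.2, called cells in each library and, with Cell Ranger 3.0.2, thinned reads to equal depth before joining both. The deposited counts are whole numbers of UMIs per gene and cell. The authors also deposited cluster averages, which are scaled UMI sums and are neither counts nor ratios, beside log2 fold changes and p-values of their own that were not used. These averages fix the cluster of each cell: all 19096 cells were assigned in 32 rounds, and 0 of 252240 pairs of gene and cluster differed. A suffix of the barcode gives the library of each cell.

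UMIs were summed per library and cluster and compared with edgeR 4.0.16 (glmQLFit, TMM, filterByExpr, no block) in R 4.3.3. Benjamini-Hochberg adjustment was over all genes tested. The members, lists and clusters compared were chosen with earlier results of these data known, and list genes were named by the size of their change, up to 3 a list, at a level of 0.05 or more on one side. Tested on simulated counts with 200 genes changed 3-fold, the fit recovered 86.5% for cluster 9 against the myogenic clusters over 12941 genes and 87.5% for cluster 12 against cluster 3 over 10811 genes. It also made 19 and 26 false calls in these comparisons. For clusters 2 and 4 against clusters 1 and 8 it recovered 91% and made 37 false calls. These were more false calls than an adjusted p under 0.05 allows for, so calls near that threshold are uncertain. The library number pairs both sides of a comparison, since each library supplied cells to both. The correlations of their library differences ran from 0.167 in cluster 7 to 0.669, and the fit with that replicate block is an alternative: it called 68 gene and cluster pairs against all other cells, where the fit without it called 59.

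Alternatives were DESeq2 1.42.0, no filter, library totals in place of TMM, cells under 2000 UMIs left out (1898 cells), the other clusters weighted equally, the shallow clusters left out, each cell assigned to its best profile without the cytokine lists (85.4% kept their cluster), and Leiden clustering without them, which matched 9 of 15 clusters. Cells under 2000 UMIs were absent from both sides of the direct comparisons, so that setting repeated the main fit there. After the data had been seen, 2 alternatives were added. Cluster 9 was left out of the other cells, and the planned doublet calls were replaced, since Scrublet's automatic threshold called 0 and 1 cells. The cells with the highest scores, 755 (7.60%) and 642 (7.01%), just under an expected share of 8%, were left out instead, and they were kept elsewhere. Positions and sequences are not given, and depth limits CXCL8 and LIF.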

Additional observations from a re-analysis of the deposited data

How the results depend on the processing

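In cluster 9 against all other cells and against the myogenic clusters, the 5 genes high enough to be tested on either side kept their direction and call in all settings that gave a value. The replicate block ended no call of the 7 genes and added 10 of 110, among them CCL2 and CXCL8 in cluster 7. Leiden clustering gave no values for the direct comparisons. In cluster 12 against cluster 3, 3 genes were called (1 higher, 2 lower), and 1 (0 higher, 1 lower) with DESeq2, without high doublet scores and with the best profile. In cluster 3 against cluster 1, 1 gene (0 higher) was called with the best profile. In clusters 2 and 4 against clusters 1 and 8, DESeq2 called 0 genes, with 2 at an unadjusted p under 0.05, where edgeR called 2 of 5 tested and had 3, and 1 gene was called, lower, without a filter and with library totals. Over the 15 clusters against all other cells, 18 calls were higher and 41 lower, and with cluster 9 left out of the other cells 23 and 24. The 18 and 41 include calls of CXCL8 that rest on the UMIs of cluster 9. Both counts of lower calls, 41 and 24, include IL6 in clusters 1, 3, 6 and 12. There it passed the filter on low counts only through the other cells. Of the 21 most alike genes, 7 were kept with rank correlations and 4 without the shallow clusters.

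When 1 library was left out, 12 log2 fold changes changed sign, none of them called: CXCL8 in clusters 7, 10 and 14, CCL2 in clusters 7 and 14, CXCL12 and IL6 in clusters 14 and 15, VEGFA in clusters 10 and 11, and CSF1 in clusters 2 and 4 against clusters 1 and 8. Those that changed sign in the other settings follow, and the cause was not tested. With cluster 9 left out of the other cells, CSF1 in cluster 2 became 0.0017 and VEGFA in cluster 15 0.25, IL6 became 0.52, 0.68, 1.34, 0.95 and 1.23 in clusters 4, 5, 8, 10 and 11, CCL2 became 0.28, 2.72 and 2.08 in clusters 8, 10 and 13, and CXCL12 became 0.58 and 1.70 in clusters 8 and 13. With the other clusters weighted equally, IL6 became 0.25, 0.44, 1.11, 0.75 and 0.99 in clusters 4, 5, 8, 10 and 11, CXCL8 1.82, 1.74 and 0.43 in clusters 5, 10 and 12, CCL2 1.54 and 1.09 in clusters 10 and 13, and CXCL12 0.95 in cluster 13. With Leiden clustering, CSF1 became -0.10 in cluster 3 and VEGFA -0.079 in cluster 4, and in cluster 7 IL6, CCL2, CXCL12 and VEGFA became -0.81, -1.87, -1.79 and -0.14. With the best profile, VEGFA became -0.0095 in cluster 10 and 0.53 in cluster 15, IL6 -0.15 and -10.12 in clusters 14 and 15, CCL2 -0.97 in cluster 14 and -0.022 in cluster 12 against cluster 3, and CXCL12 -0.25 and -0.91 in clusters 14 and 15. Without high doublet scores, IL6 became -0.29 and CXCL8 -7.47 in cluster 14. With library totals, CSF1 became -0.021 in cluster 1 and 0.016 in clusters 2 and 4 against clusters 1 and 8, and VEGFA 0.093 in cluster 15. With DESeq2, CXCL8 became 2.05 in cluster 15.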
